A study of Mus musculus with 10 samples.

Results

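The 10 genes described here mark or specify the subsets of dendritic cells, and they were followed in whole aortas of hyperlipidemic mice with and without the cytokine IL-17. The genes were taken by symbol (Flt3, Itgax, Zbtb46, Xcr1, Clec9a, Cd209a, Siglech, Irf8, Batf3 and Irf4). Of these 10, 9 had a probe set named by 1 gene symbol, out of 22180 genes so named in all. Clec9a, a receptor for dead cells, was not measured, since its probe set carries a second gene symbol.

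Each of 10 aortas gave total RNA for 1 Affymetrix Mouse Gene 2.0 ST array. The double knockout group held 5 male mice that lack both apolipoprotein E (ApoE) and IL-17 (ApoE/IL-17 double knockout), made by crossing IL-17-/- into ApoE-/- mice. The other group held 5 male mice that lack ApoE alone (ApoE knockout), so loss of ApoE, the ligand that clears lipoprotein remnants, is shared by all 10 animals. All were on a C57BL/6 background, were fed high fat chow from week 8 of life for 3 weeks, and their aortas were taken at 11 weeks. The protocols differ between the groups: that given for the ApoE knockout aortas speaks of wild-type and of ApoE/caspase-1 animals, and not of IL-17. The labels name no run, so an effect of separate handling of the groups cannot be told apart from that of genotype.

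Dendritic cells take up antigen, carry it to lymphoid tissue and present it to T cells. Conventional dendritic cells of type 1 present antigen on class I molecules to CD8 T cells, those of type 2 present mainly to CD4 T cells, and plasmacytoid dendritic cells secrete type I interferon. All depend on the growth factor FLT3 ligand, and in the artery they lie mainly in the adventitia and in the intima of regions prone to atherosclerosis. Several of their genes are also used by macrophages, B cells or endothelium. In whole tissue, fewer cells of a type and less RNA per cell cannot be told apart.

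In the deposited values, Cd209a and Zbtb46 of the 9 measured members passed the test, in opposite directions. A gene was called when its limma p-value, adjusted by the Benjamini-Hochberg method over all 22180 genes, lay under 0.05. Cd209a fell 1.33-fold and Zbtb46 rose 1.17-fold in the double knockout, while the other 7 did not pass. Across the array 30.3% of genes were called, 22.8% higher and 7.53% lower, and 1 call in each direction among 9 genes is near that background. Of 7 members above the receptor gene level (a guide to dim signal given next) 2 were called, against 25.2% of such genes (14.3% higher, 10.9% lower), and of 2 below it 0, against 38.2% (35.9% higher, 2.3% lower). After quantile normalization 1 member was called (Irf4, lower), against 20.1% of all genes (8.94% higher, 11.2% lower). With arrays centred on the median of all probe sets 2 members were called, Cd209a and Irf4, both lower, and Zbtb46 was not. Of all 22180 genes 1669 were then higher and 5641 lower. The median log2 change of the 9 in the deposited values was -0.080, against 0.10 for all genes. After quantile normalization it was -0.32, against -0.02 for all genes. In the deposited values the groups did not overlap for Zbtb46 alone among the 9, against 20.4% of all genes.

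The values are log2 per probe set as deposited, and levels of different genes are not compared with each other. The smooth muscle markers of the aorta were bright, with list means (the mean log2 value of a list's genes in 1 array) of 12.08 to 12.16 in the double knockout and 11.65 to 12.11 in the ApoE knockout aortas, and 2 of 6 were higher (0 with arrays centred on the median of all probe sets or of the genes tested). As a guide to dim signal, 1428 genes of smell, pheromone and taste receptors were used: the 95th percentile of their means was 5.80, called the receptor gene level from here on. Flt3 and Xcr1 lay below it, and Batf3, at a mean of 5.85, just above. Correlations between arrays across genes were 0.986 to 0.992 within the double knockout, 0.986 to 0.993 within the ApoE knockout and 0.970 to 0.986 across the groups. Every double knockout array had a higher median over all probe sets (5.95 to 6.03) than every ApoE knockout array (5.76 to 5.80). Lower quartiles were 4.72 to 4.83 against 4.49 to 4.53, and upper quartiles 7.59 to 7.66 against 7.55 to 7.62. The deposited values of the groups were thus offset at dim and middle levels, and the cause was not tested. In all 5050 genes were higher and 1671 lower, a share of 75.1% higher, which became 44.4% of 4461 calls after quantile normalization, 22.8% of 7310 with arrays centred on the median of all probe sets, and 60.9% of 5877 with arrays centred on the median of the genes tested. The median change of all genes moved to -0.02, -0.11 and 0.04 under these 3 scalings. Apoe was 1.59-fold higher in the double knockout (6.98 ± 0.17 against 6.31 ± 0.16, SD, n = 5, adjusted p = 0.0011), and Il17a did not pass (4.66 ± 0.17 against 4.41 ± 0.14, adjusted p = 0.073). Where the probes lie relative to the deletions is unknown, so neither gene checks the labels.

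The next 2 sequences are the stretches before the transcription start of Itgax and Irf8, shown because these members gave the closest pair of patterns across the 10 aortas. They come from RefSeq on build GRCm38.p6, plus strand, and end where the annotated gene begins. Itgax lies at chr7:128129300-128129525 and Irf8 at chr8:120736108-120736357. Capitals mark matches to the motifs searched, which are an AP-1 core (TGANTCA) in Itgax and a pair of GAS element cores (TTCNNNGAA, the core bound by STAT factors) in Irf8.
Itgax: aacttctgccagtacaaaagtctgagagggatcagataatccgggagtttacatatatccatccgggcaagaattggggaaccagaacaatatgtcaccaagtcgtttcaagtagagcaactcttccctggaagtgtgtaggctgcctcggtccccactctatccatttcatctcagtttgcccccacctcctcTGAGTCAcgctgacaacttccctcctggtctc
Irf8: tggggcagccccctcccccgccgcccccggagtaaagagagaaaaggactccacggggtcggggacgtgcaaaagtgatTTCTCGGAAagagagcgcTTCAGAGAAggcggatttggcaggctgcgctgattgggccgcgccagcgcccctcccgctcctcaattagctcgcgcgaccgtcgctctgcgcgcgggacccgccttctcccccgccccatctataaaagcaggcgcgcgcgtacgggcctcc

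All 10 members matched the RefSeq promoter table, with 11 windows of 250 bases, since Irf8 has a second listed start. Both strands were searched. The GAS core was found in windows of Irf8, Batf3 and Siglech (3 of 11), against 7.02% of 32851 windows of all genes. The AP-1 core was found in Itgax and Zbtb46 (2 of 11 windows, against 6.75%). The Zbtb46 window (chr2:181424389-181424638) lies inside the annotated gene (181371009 to 181493262), not before its outer end. The second Irf8 window (chr8:120738389-120738638) also lies inside its gene (120736358 to 120756694). The full windows of Itgax and Siglech run past the annotated start into their genes. The PU.1 type ETS core GAGGAA, which can overlap the composite element below, was found in Batf3 and Irf4 (2 of 11, against 23.3%). The tandem core of interferon regulatory factors (GAAA and GAAA with NN between them) and the ETS-IRF composite element (GGAA and GAAA with NN between them) were in none of the 11 windows, and in 2.98% and 2.30% of all windows. A match describes the letters only.

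Flt3 and Itgax mark dendritic cells as a whole, and neither passed the test. Flt3 encodes the receptor tyrosine kinase for FLT3 ligand, needed for dendritic cell development. It read 5.53, 5.48, 5.80, 5.74 and 5.52 in double knockout replicates 1 to 5, against 5.72, 5.71, 5.51, 5.60 and 5.21 in ApoE knockout replicates 1 to 5. Every array lay below the receptor gene level, and the groups overlapped, with double knockout replicates 3 and 4 just above the ApoE knockout range. The log2 change was 0.063 (95% interval -0.17 to 0.30, adjusted p = 0.68), and it turned to -0.17 after quantile normalization.

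Itgax encodes CD11c, the integrin chain used to identify dendritic cells, which macrophages also carry. It read 7.08, 8.52, 6.17, 7.36 and 7.51 in the double knockout aortas (replicates 1 to 5), against 6.86, 8.80, 8.25, 7.57 and 7.12 in the ApoE knockout aortas (replicates 1 to 5). In both groups replicate 2 was highest, and the highest double knockout aorta exceeded 4 of the 5 ApoE knockout aortas. The SD was 0.84 in the double knockout and 0.80 in the ApoE knockout, and the spread of Itgax within groups was larger than that of 99.7% of all genes. The log2 change of -0.39 therefore had a wide interval, from -1.35 to 0.56 (adjusted p = 0.51), which allows a fall of more than 2-fold as well as a rise. It was -0.11 without double knockout replicate 3 (adjusted p = 0.87) and -0.12 without ApoE knockout replicate 2 (adjusted p = 0.85), the range over 20 alternatives being 0.21 to 0.87.

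Zbtb46 encodes a zinc finger repressor that separates conventional dendritic cells from other myeloid cells and is also made by endothelial cells. It read 6.86, 6.86, 7.02, 6.98 and 7.08 in double knockout replicates 1 to 5, against 6.85, 6.68, 6.57, 6.84 and 6.72 in ApoE knockout replicates 1 to 5. Every double knockout aorta lay above every ApoE knockout aorta, although the nearest values of the 2 groups were almost equal. The rise was 0.23 (SE 0.08, 95% interval 0.06 to 0.40, adjusted p = 0.044, exact permutation p = 0.0079, the lowest possible with 5 arrays a group). Its spread was small, below that of all but 18.5% of genes, and its change stood 0.13 above the median change of all genes. The rise depended on scaling: it was 0.12 after quantile normalization (adjusted p = 0.32), 0.025 with arrays centred on the median of all probe sets (adjusted p = 0.83) and 0.18 with arrays centred on the median of the genes tested (adjusted p = 0.16), none of them called, within a range of 0.028 to 0.83 over 20 alternatives. The call was also lost with the replicate number as a block (adjusted p = 0.079) and without any 1 of double knockout replicates 3, 4 and 5 or ApoE knockout replicates 2, 3 and 5 (adjusted p between 0.071 and 0.11). Endothelial markers ran the other way, with 2 of 6 lower, none higher and list means of 9.56 to 10.12 in the double knockout against 9.98 to 10.18 in the ApoE knockout, and their part in the Zbtb46 value was not tested.

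**Figure D1:**
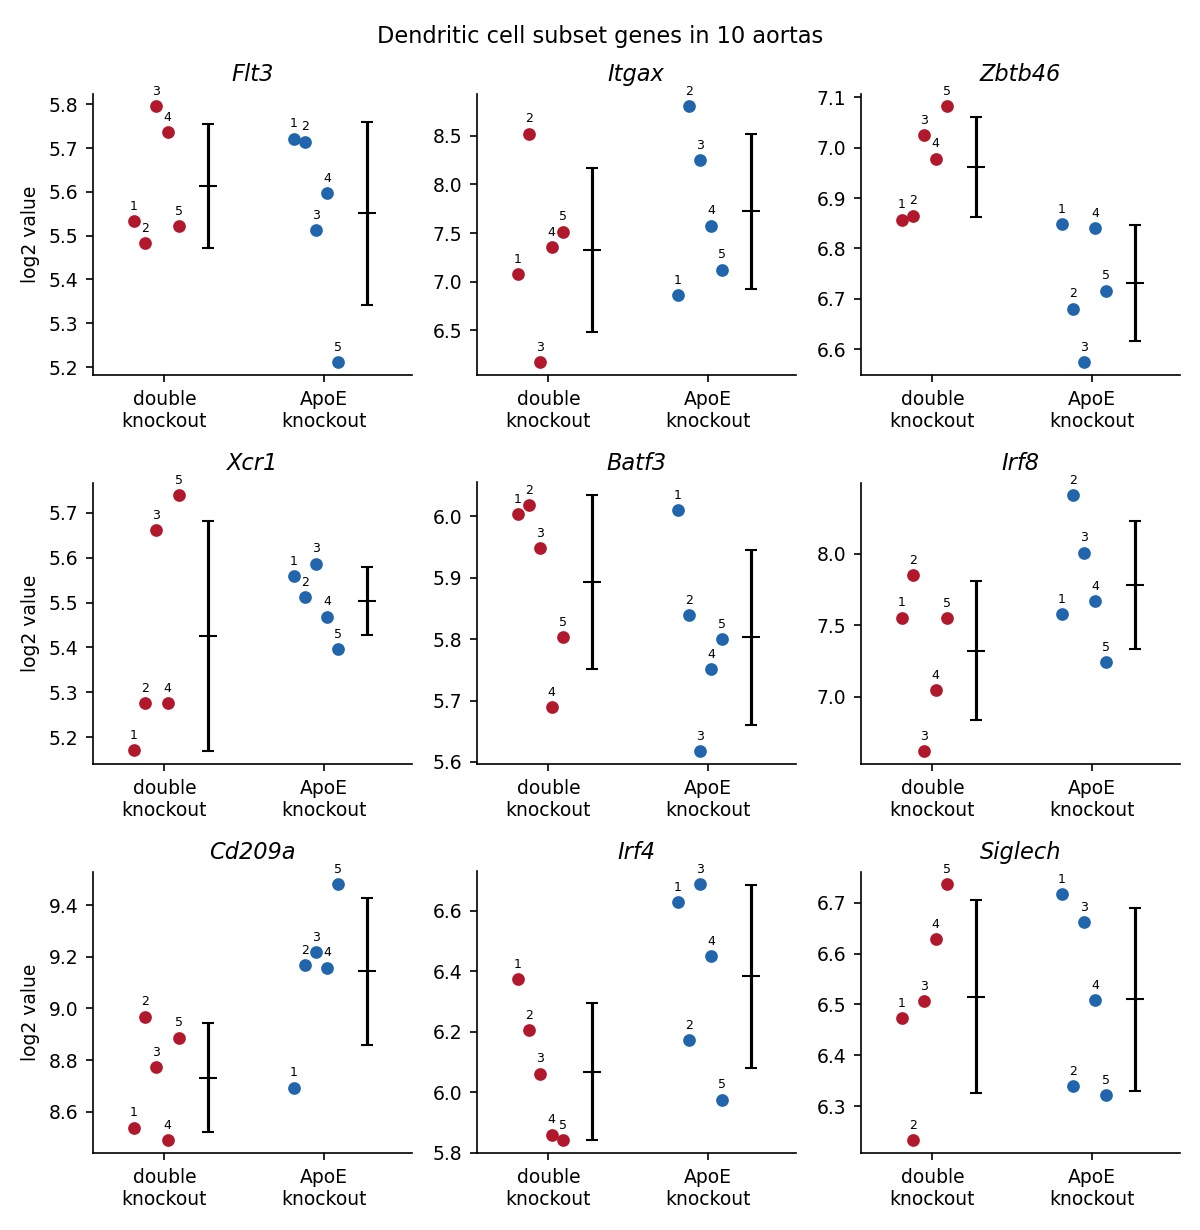
Log2 value (vertical axis, a scale of its own in each panel) of the 9 measured members in 5 double knockout (red, left) and 5 ApoE knockout (blue, right) aortas; numbers are replicate numbers with no order, and black bars show the mean ± SD. The groups are separate for Zbtb46 and overlap in the other 8 panels, with the widest spread in Itgax (6.17 to 8.80).

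None of the 3 measured genes of type 1 conventional dendritic cells, Xcr1, Batf3 and Irf8, was called. Xcr1 encodes the receptor for the chemokine XCL1 and is the marker most restricted to this subset. It ranged from 5.17 to 5.74 (median 5.28) in the double knockout and from 5.40 to 5.59 (median 5.51) in the ApoE knockout, below the receptor gene level in every array. The double knockout aortas fell on both sides of the ApoE knockout range, 3 below it and 2 above. The change was -0.080 (95% interval -0.33 to 0.17, adjusted p = 0.61). It was -0.32 after quantile normalization (95% interval -0.57 to -0.059, adjusted p = 0.078), -0.28 with arrays centred on the median of all probe sets (adjusted p = 0.079) and -0.016 without double knockout replicate 1 (adjusted p = 0.93), within a range of 0.078 to 0.93 over 19 alternatives.

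Batf3 encodes an AP-1 family factor needed for the normal development of this subset. It ranged from 5.69 to 6.02 in the double knockout and from 5.62 to 6.01 in the ApoE knockout, so the groups covered almost the same span. The change was 0.089 (95% interval -0.11 to 0.29, adjusted p = 0.48), close to the median of all genes, and it was -0.12 after quantile normalization.

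Irf8 encodes the transcription factor that commits progenitors to type 1 and plasmacytoid dendritic cells and that monocytes, macrophages and B cells use too. It read 7.55, 7.85, 6.62, 7.04 and 7.55 in double knockout replicates 1 to 5, against 7.58, 8.41, 8.01, 7.67 and 7.24 in ApoE knockout replicates 1 to 5. Double knockout replicates 3 and 4 lay below every ApoE knockout aorta, and the other 3 within the ApoE knockout range. Its change was -0.46, with means of 7.32 ± 0.49 in the double knockout and 7.78 ± 0.45 in the ApoE knockout (SD, n = 5), and it did not pass (SE 0.25, 95% interval -1.01 to 0.10, adjusted p = 0.19). It was -0.28 without double knockout replicate 3 (adjusted p = 0.38) and -0.30 without ApoE knockout replicate 2 (adjusted p = 0.37), within a range of 0.062 to 0.38 over 20 alternatives. A second, dimmer Irf8 probe set, below the receptor gene level in every array, averaged 5.30 ± 0.17 in the double knockout and 5.47 ± 0.16 in the ApoE knockout (difference -0.16, exact permutation p = 0.16).

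Both measured members of type 2 conventional dendritic cells were lower on average, and Cd209a was called. Cd209a encodes a C-type lectin related to human DC-SIGN, found on type 2 and monocyte-derived dendritic cells. It read 8.54, 8.97, 8.77, 8.49 and 8.89 in double knockout replicates 1 to 5, against 8.69, 9.17, 9.22, 9.16 and 9.48 in ApoE knockout replicates 1 to 5. All double knockout aortas lay below ApoE knockout replicates 2 to 5, and ApoE knockout replicate 1 lay among them. The fall was 0.41 on the log2 scale (-0.41, SE 0.14, 95% interval -0.73 to -0.10, adjusted p = 0.047, exact permutation p = 0.040).

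A second Cd209a probe set gave means of 7.22 ± 0.30 in the double knockout and 7.78 ± 0.46 in the ApoE knockout (SD, n = 5), a difference of -0.56 (exact permutation p = 0.063). The probe sets had the same direction but ordered the ApoE knockout aortas differently. Replicate 5 was highest on the first probe set (9.48) and lowest on the second (7.26), and replicate 1 was lowest on the first (8.69) but at 8.18 on the second. The Cd209a call was near the threshold: it was lost in 8 of the 10 fits that left out 1 array, namely each of double knockout replicates 1, 3, 4 and 5 and ApoE knockout replicates 2, 3, 4 and 5 (adjusted p between 0.052 and 0.10), and after quantile normalization (-0.38, adjusted p = 0.064, range over 20 alternatives 0.010 to 0.10). With the mean of both probe sets it held (-0.49, adjusted p = 0.011), but with the second probe set alone it was lost (-0.56, adjusted p = 0.066). It was also lost with ordinary least squares per gene (adjusted p = 0.088) and with genes above the receptor gene level only (adjusted p = 0.051). Cd209a was called in 8 of the 20 alternatives.

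Irf4 encodes the factor needed for the function and migration of type 2 dendritic cells, and for plasma cells and effector T cells. It read 6.38, 6.21, 6.06, 5.86 and 5.84 in double knockout replicates 1 to 5, against 6.63, 6.17, 6.69, 6.45 and 5.98 in ApoE knockout replicates 1 to 5. Double knockout replicates 4 and 5 lay below every ApoE knockout aorta and the others within their range. The change of -0.31 (SE 0.15, 95% interval -0.65 to 0.02) did not pass (adjusted p = 0.13). It depended on scaling: it was called after quantile normalization (-0.48, adjusted p = 0.040) and with arrays centred on the median of all probe sets (-0.52, adjusted p = 0.020), but not with arrays centred on the median of the genes tested (-0.37, adjusted p = 0.068). It was also called without ApoE knockout replicate 5 (-0.42, adjusted p = 0.046), within a range of 0.020 to 0.28 over 20 alternatives.

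Siglech encodes a sialic acid binding lectin that marks plasmacytoid dendritic cells and some tissue macrophages and microglia. It ranged from 6.23 to 6.74 (median 6.51) in the double knockout and from 6.32 to 6.72 (median 6.51) in the ApoE knockout. The means, 6.52 ± 0.19 and 6.51 ± 0.18 (SD, n = 5), differed by 0.0054 with a 95% interval from -0.24 to 0.25 (adjusted p = 0.97). After quantile normalization the change was -0.14 (adjusted p = 0.37, range over 20 alternatives 0.18 to 0.98).

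**Figure D2:**
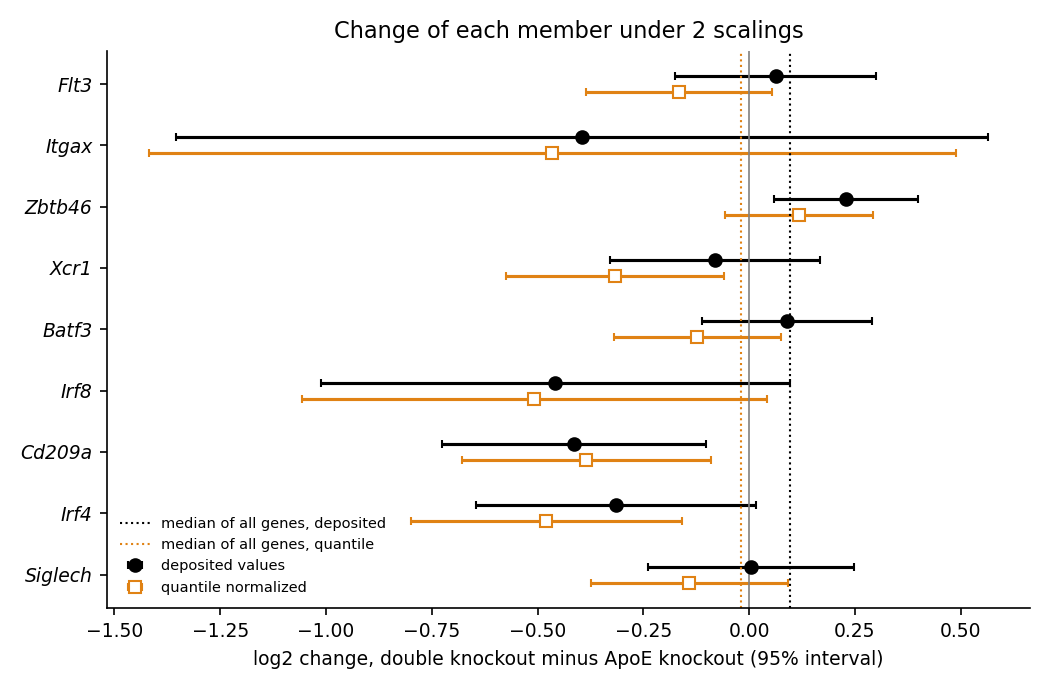
Log2 change, double knockout minus ApoE knockout (horizontal axis), of each member with its 95% interval, from the deposited values (black circles) and after quantile normalization (orange squares); dotted lines mark the median change of all genes, 0.10 and -0.02. The intervals of Zbtb46 and Cd209a exclude 0 in the deposited values, and those of Cd209a, Irf4 and Xcr1 after quantile normalization, where only Irf4 is called.

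Itgax and Irf8 varied together among aortas of the same genotype. Over the 10 arrays, the deviations of the 2 genes from their group means had a Pearson r of 0.89, the highest of 36 pairs of members and the only pair above 0.6. Replicate 2 was the highest aorta for both genes in both groups, and double knockout replicate 3 was the lowest for both. These arrays stood apart in other lists as well. Of 8 lists (the other dendritic cell lists, growth factors, class II presentation, macrophage and monocyte markers), 7 had their highest double knockout list mean in replicate 2 and their lowest in replicate 3, and 5 had their highest ApoE knockout list mean in replicate 2. The high replicate 2 was not particular to these lists. It was also highest for plasma cell, endothelial and fibroblast markers in the double knockout, though not for B, T and natural killer cell, neutrophil, smooth muscle or red cell markers. In the ApoE knockout replicate 2 was also highest for T cell, neutrophil, endothelial and red cell markers, though not for the other marker lists. The macrophage list mean was highest in replicate 2 (9.83) and lowest in replicate 3 (9.13) of the double knockout, while in the ApoE knockout replicate 3 was highest (9.81) and replicate 5 lowest (9.44). The monocyte list mean was highest in replicate 2 of both groups (7.97 in the double knockout, 7.98 in the ApoE knockout). The part of these cells in the Itgax and Irf8 values was not tested. The brighter Cd209a probe set was also highest in replicate 2 of the double knockout (8.97) but in replicate 5 of the ApoE knockout, while the second was highest in replicate 2 of both groups (7.58 and 8.25) and lowest in double knockout replicate 3 (6.78).

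Among 13498 other genes above the receptor gene level, Igsf6 and Cd300c2 had deviations most like those of Itgax (r of 0.99 for each, 10 arrays), and Agfg2 and Tifab most like those of Irf8 (r of 0.99 and 0.97). For Cd209a they were Gnl3l and S100a6 (0.98 and 0.97), for Zbtb46 Olfr792 and Msl1 (0.90 and 0.88), for Siglech Snhg4 and Zfp281 (0.95 and 0.90), for Batf3 Atp5g1 and Tgm1 (0.94 and 0.93) and for Irf4 Myo19 and Acss2 (0.96 and 0.94). These are the highest of many values over 10 arrays and are given as a description. Of these genes Igsf6, an immunoglobulin superfamily gene of myeloid cells, and Cd300c2, a myeloid receptor, changed by -0.33 and -0.42 (Itgax -0.39). In the order named, the others changed by -0.26 and -0.20 (Irf8 -0.46), and by -0.20 and 0.013 (Cd209a -0.41). For Zbtb46 (0.23) the changes were 0.60 and 0.23, and for Siglech (0.0054) 0.082 and -0.032. For Batf3 (0.089) they were 0.14 and -0.16, and for Irf4 (-0.31) 0.14 and -0.79. Likeness within groups thus did not always go with a like change.

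**Figure D3:**
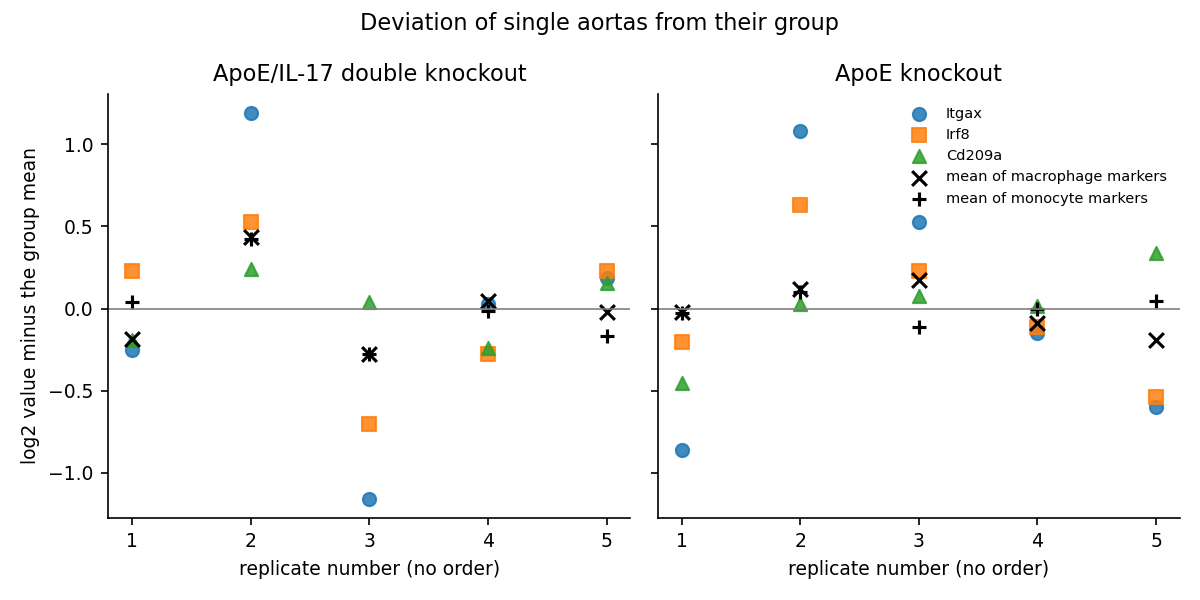
Log2 value minus the group mean (vertical axis) of Itgax, Irf8 and Cd209a, and of the list means of macrophage and monocyte markers (black crosses), for each replicate of the double knockout (left) and the ApoE knockout (right); replicate numbers have no order. Itgax and Irf8 are highest in replicate 2 of both groups and lowest in replicate 3 of the double knockout.

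Other genes of dendritic cells were read from 4 further lists with 66 genes, of which 63 were measured. Of these 63, 4 were higher, 8 lower and 51 did not pass, with a median log2 change of -0.053. The share called was 19.0%, against 30.3% of all genes (22.8% higher, 7.53% lower), so the total mixes directions of unlike background. The counts depended on scaling. After quantile normalization 2 were higher and 12 lower (22.2% called), against 8.94% of all genes higher and 11.2% lower. With arrays centred on the median of all probe sets 2 were higher and 23 lower (39.7% called). Of all 22180 genes 1669 were then higher and 5641 lower. With arrays centred on the median of the genes tested 3 were higher and 10 lower (20.6% called), against 3581 and 2296 of all genes. Many of the called genes named below are also used by other blood cells. After quantile normalization the medians of the plasmacytoid and the mature lists turned negative (-0.12 and -0.094).

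For type 1 dendritic cells 1 of 16 other genes was lower and 1 higher (median -0.033). Cd24a, a surface glycoprotein that is also abundant on red cell precursors and B cells, fell 3.43-fold (10.40 ± 0.31 in the double knockout, 12.18 ± 0.19 in the ApoE knockout, SD, n = 5, adjusted p = 3.8e-05). The 3 measured red cell markers were all lower, with list means of 7.17 to 7.77 in the double knockout and 9.68 to 10.29 in the ApoE knockout, and their part in the Cd24a value was not tested. Nfil3, a transcription factor of dendritic and natural killer cell development that also takes part in the circadian clock, rose 1.61-fold (8.31 ± 0.26 against 7.62 ± 0.22, adjusted p = 0.0045).

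For type 2 dendritic cells 3 of 15 other genes were lower and 2 higher (median -0.19). Cd7, also a T and natural killer cell gene, fell 2.29-fold (adjusted p = 0.00063), Ltb, the lymphotoxin beta chain made mainly by lymphocytes, fell 1.51-fold (adjusted p = 0.0018), and Cd209d, a relative of Cd209a, fell 1.79-fold (adjusted p = 0.026). Relb, an NF-kappaB subunit needed for type 2 dendritic cells, rose 1.18-fold (adjusted p = 0.024), and the adhesion gene Epcam rose 1.36-fold at a level of 4.61 ± 0.09 in the double knockout against 4.16 ± 0.10 in the ApoE knockout, below the receptor gene level. After quantile normalization 4 genes of this list were lower and 0 higher.

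For plasmacytoid dendritic cells 2 of 17 other genes were lower and 1 higher (median 0.056). Ly6d and the transcription factor gene Spib, both also B cell genes, fell 2.40-fold (adjusted p = 0.0080) and 1.89-fold (adjusted p = 0.017). The double knockout mean of Spib, 5.12, lay below the receptor gene level. Tcf4, which encodes the E protein that maintains plasmacytoid cells and is widely expressed in vessel cells, rose 1.22-fold (9.44 ± 0.13 against 9.15 ± 0.06, SD, n = 5, adjusted p = 0.014).

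In the list of mature and migratory dendritic cells 2 of 15 genes were lower and 0 higher (median 0.047). Ccr7, the receptor that guides dendritic cells and naive T cells to lymph nodes, fell 2.29-fold (6.65 ± 0.35 against 7.84 ± 0.28, SD, n = 5, adjusted p = 0.00094). Cd86, the costimulatory ligand of CD28, fell 1.54-fold (6.20 ± 0.34 against 6.83 ± 0.14, adjusted p = 0.010).

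Growth factor and receptor genes of the dendritic lineage moved in both directions, with 3 of 14 measured genes higher and 1 lower (median -0.092). Csf2, which encodes GM-CSF, rose 1.54-fold (adjusted p = 0.0026), and Csf2rb, the shared beta chain of its receptor, rose 1.37-fold (7.04 ± 0.24 against 6.59 ± 0.19, SD, n = 5, adjusted p = 0.020). Xcl1, the ligand of the Xcr1 receptor, fell 1.31-fold (5.32 ± 0.18 against 5.71 ± 0.21, adjusted p = 0.026), and Lta, a lymphotoxin gene, rose 1.46-fold, both below the receptor gene level. After quantile normalization 1 of the 14 was higher and 2 lower. FLT3 ligand itself was not measured here.

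Class II presentation genes, used by dendritic cells, B cells and macrophages, were lower in 4 of 9 measured and higher in 0 (median -0.52). They were H2-Oa (1.73-fold, adjusted p = 8.2e-05), H2-Ob (1.44-fold, adjusted p = 0.0085), H2-Ab1 (1.67-fold, adjusted p = 0.013) and H2-DMb2 (1.71-fold, adjusted p = 0.027). List means ran from 7.52 to 8.18 in the double knockout and from 8.2 to 8.59 in the ApoE knockout. After quantile normalization 5 of the 9 were lower, and 8 with arrays centred on the median of all probe sets.

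**Figure D4:**
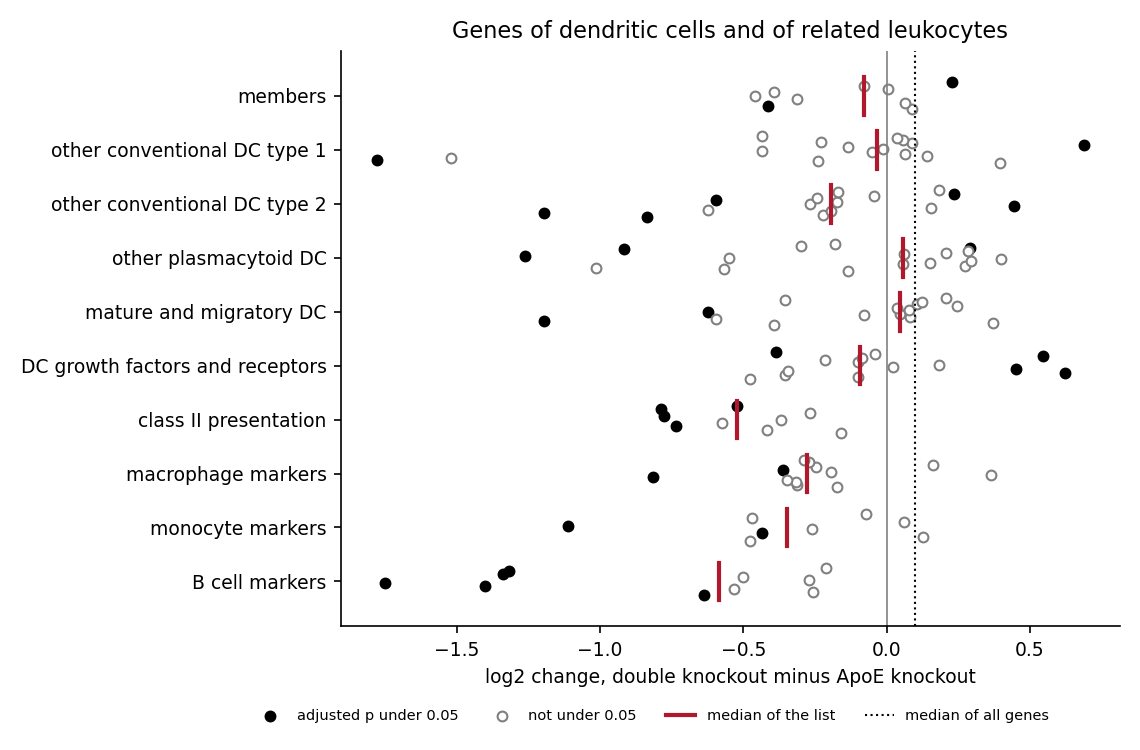
Log2 change, double knockout minus ApoE knockout (horizontal axis), of every measured gene in the members and in 9 lists of dendritic cells (DC), presentation genes and related leukocytes; filled points are called, red bars are list medians and the dotted line is the median of all genes, 0.10. In these deposited values the medians of the members (-0.080) and the 4 other dendritic cell lists (-0.19 to 0.056) lie nearer to 0 than those of class II presentation (-0.52) and B cell markers (-0.58). After quantile normalization (not drawn) the median of the members was -0.32, against -0.02 for all genes. It was then -0.25 for macrophage markers, -0.31 for monocyte markers, -0.59 for class II presentation and -0.68 for B cell markers.

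Markers of other cells that share these genes were read beside them, in the deposited values, where 7.53% of all genes were lower. The counts depended on scaling. With arrays centred on the median of all probe sets, 7 macrophage, 5 monocyte, 9 B cell, 8 T cell and 1 plasma cell markers were lower. Of all 22180 genes 5641 were then lower. After quantile normalization the counts lower were 2, 3, 8, 7 and 0 in the same order, against 11.2% of all genes. Macrophage markers were lower in 2 of 12 (median -0.28), Cd163 by 1.76-fold and Folr2 by 1.28-fold, with list means of 9.13 to 9.83 in the double knockout and 9.44 to 9.81 in the ApoE knockout. Monocyte markers were lower in 2 of 8 (median -0.35), Ms4a4c and F13a1, with list means of 7.28 to 7.97 against 7.77 to 7.98. B cell markers, among them Cd79a and Cd79b, were lower in 5 of 10 (median -0.58), with list means of 5.90 to 6.20 in the double knockout and 6.64 to 7.39 in the ApoE knockout. T cell markers, among them Cd3g and Cd2, were lower in 5 of 10 (median -1.24), with list means of 5.97 to 7.08 against 6.44 to 8.71. Of 5 plasma cell markers limma called 0, with only Xbp1 at an unadjusted p under 0.05 (change -0.23), and list means were 6.90 to 7.13 against 6.78 to 7.27. The part of these cells in the Irf8, Irf4, Cd209a and class II values was not tested.

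Close relatives of the members were read last, as genes picked with the values already known. They were read in the deposited values only, where 22.8% of all genes were called higher and 7.53% lower. Of 7 other measured genes of the interferon regulatory factor and BATF families, Irf7, the amplifier of the type I interferon response, fell 2.84-fold (adjusted p = 0.00094) and Irf3 rose 1.17-fold (adjusted p = 0.040), while Irf1, Irf2, Irf9, Batf and Batf2 did not pass. The log2 change of Irf3 (0.23) was near that of Zbtb46 (0.23), whose call depended on scaling. In the CD209 family 3 of 5 measured genes fell, Cd209c (1.41-fold), Cd209b (1.57-fold) and Cd209d, and cross-hybridization between these related genes was not tested. Among leukocyte integrins Itgal, the LFA-1 alpha chain of lymphocytes, fell 1.89-fold (adjusted p = 0.013), while Itgam (-0.38, adjusted p = 0.16), Itgb2 (-0.49, adjusted p = 0.25) and Itgad (-0.0089, adjusted p = 0.95) did not pass. Of 6 other sialic acid binding lectin genes, Cd33, Siglecg and Siglece fell by 1.44-fold, 1.35-fold and 1.32-fold, and Siglec1, a macrophage lectin, did not pass (change 0.0058, adjusted p = 0.98).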

How the data were processed

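The deposited file holds 1 log2 value per probe set and array, for 41345 probe sets. limma is listed per the submitters' processing notes, without version or purpose. The base 2 of the log was inferred from the values, and how background and scale were treated is not stated. The number of arrays limits the precision.

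Of the probe sets, 23521 had, in the platform annotation, 1 symbol, 1814 several (not named) and 16010 are unnamed here. Where a gene had several (1082 genes), the brightest over all 10 arrays stood for it. Symbols were checked against the GRCm38.p6 gene table (23328 found, 0 updated).

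The test, over all 22180 genes, was limma 3.58.1 (lmFit, then eBayes) under R 4.3.3, without covariates. Differences are double knockout minus ApoE knockout. The two-sided exact permutation test covers all 252 assignments. Intervals are 95%. Nothing says more of the replicates than that they are biological.

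In simulated data for this comparison (22180 genes, 200 changed), 88% of changes of 1 and 100% of changes of 2 on the log2 scale were recovered, with 12 false calls. Those changes were larger than that of any member in the reported fit (the largest was -0.46, for Irf8). Far fewer genes were changed than the 6721 called in the real data. The simulation therefore does not show how often changes of the members' size would be recovered.

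Members and lists were chosen with earlier results of these data known. Named genes are the members, the targeted genes, up to 4 called genes of each other dendritic cell list and up to 2 of each marker list by smallest p, and the 2 genes most like each member above the receptor gene level. Beyond this rule, Cd209d of the type 2 list and Xbp1, which was not called, were named as well. The relatives and 2 alternatives (the probe set of lowest mean, and centring on the genes tested) were added after the data were seen. Markers of natural killer cells (2 of 5 lower, 2 higher, with 0 higher after quantile normalization), neutrophils (7 of 7 lower), fibroblasts (2 of 5 higher) and red cells were also read. With arrays centred on the median of all probe sets, 1 fibroblast marker was higher and 1 lower. With centring on the genes tested 1 was higher and 0 lower. Alternatives covered scaling, a filter on dim genes, the choice of probe set, eBayes settings, weighting of arrays, a block for replicate number, the threshold and leaving out each array. Figures were drawn with matplotlib 3.10.9.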

Additional observations from a re-analysis of the deposited data

How the results depend on the processing

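The number of called members, 2 in the reported fit (6721 genes called in all), was 1 after quantile normalization (Irf4, 4461 genes called). It was 1, Cd209a, with arrays centred on the median of the genes tested (5877 genes called). With the replicate number as a block it was also 1, Cd209a (6594 genes called). It was 1, Zbtb46, with genes above the receptor gene level only (3494 genes called). Zbtb46 was also the 1 member called with ordinary least squares per gene (5837 genes called) and with the probe set of lowest mean (6706). With arrays centred on the median of all probe sets it was 2, Cd209a and Irf4, both lower (7310 genes called, 1669 higher and 5641 lower). At an adjusted p under 0.01 it was 0 (2970 genes called), where 2 members had an unadjusted p under 0.05. Leaving out 1 array gave 0 to 2 called members and 5056 to 7022 called genes.

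Over 20 alternatives other than the threshold, Zbtb46 was called in 10, Cd209a in 8 and Irf4 in 3, and Irf8, Itgax, Siglech and Batf3 in 0, as were Flt3 and Xcr1 over 19. The direction of Zbtb46, Cd209a, Irf4, Irf8, Itgax and Xcr1 held in all of these, but several of the alternatives could not change it. The filter on dim genes, the eBayes settings, the block and ordinary least squares left each change as it was. The choice of probe set did so too for members with 1 probe set, Zbtb46 and Irf4 among them. After quantile normalization the signs of Flt3 (-0.17), Siglech (-0.14) and Batf3 (-0.12) were reversed, as they were with arrays centred on the median of all probe sets (-0.14, -0.20 and -0.12). That of Siglech was also reversed with arrays centred on the median of the genes tested (-0.048). Leaving out 1 array gave Siglech changes from -0.050 to 0.076 and Flt3 changes from -0.022 to 0.11, with none called. The cause of these changes was not tested.

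With the replicate number as a block, Zbtb46 was not called (0.23, adjusted p = 0.079) and Cd209a was (-0.41, adjusted p = 0.020), with 6594 genes called. By the correlation of deviations from the group means, 3 of 5 double knockout arrays were closest to the ApoE knockout array of their own number (r from 0.14 to 0.26). This is a hint from the data, not the design: the labels tie no number to a shared animal or day, and the other 2 pairs were at -0.13 and 0.060. The numbers of arrays and the closeness of dim members to the receptor gene level limit what can be seen for Flt3, Xcr1 and Batf3.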
